A study of Mus musculus with 20 samples.

Results

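The small subunit processome is the large particle that assembles on the nascent ribosomal RNA precursor in the nucleolus, where it folds, modifies and cuts the part that becomes 18S rRNA. Its parts join in order: the UTP-A complex binds the leader of the precursor first, the UTP-B complex and the U3 small nucleolar ribonucleoprotein (snoRNP) follow, and further scaffold proteins, helicases and enzymes come later. Pre-40S factors then carry the released particle out of the nucleus and through its last cut in the cytoplasm. In the preimplantation mouse embryo the ribosomes stored in the oocyte are supplemented by new ones, whose production needs these factors once the embryonic genome is active.

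The 50 genes described here encode such factors and were chosen as a named list out of 34937 genes in the count files. Of these, 49 were found by gene identifier and Riok2 by the position of its exons on GRCm38 (chr17:17374332-17394898). The list was drawn up with the contrast between embryos with and without maternal G9a in view, so the values of its genes in that contrast are given as a description, without a test.

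RNA was measured in single 8C embryos at E2.5, and counts of 9 Ehmt2Cntr and 10 Ehmt2Mat embryos were used. G9a, encoded by Ehmt2, is the enzyme that places dimethylation on lysine 9 of histone H3. All mothers carried Zp3-Cre, which recombines a floxed allele in the growing oocyte, and all fathers were Ehmt2+/-. Control mothers were Ehmt2F/+, so that the oocyte kept G9a, and the mothers of Ehmt2Mat embryos were Ehmt2F/-. By zygotic genotype, 6 controls were +/+ and 3 were +/-, while 5 Ehmt2Mat embryos were +/- (Ehmt2M/+) and 5 were -/- (Ehmt2M/Z). The stock was of mixed background, embryos were of normal appearance, and the labels name neither litter nor mother, so that p-values treat embryos as independent and effects of single mothers cannot be told apart from those of the maternal genotype. A difference in developmental pace between the groups cannot be told apart from the genotype either.

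Total counts ranged from 12985149 to 30053248 in controls and from 8231646 to 30602434 in Ehmt2Mat embryos, and mitochondrial genes took 6.47 to 20.4% and 8.03 to 21.7% of them. CPM below are counts divided by the TMM-scaled library size, and 3 counts were worth between 0.098 and 0.364 CPM. Ehmt2 itself ranged from 66.6 to 253 CPM in controls (median 133) and from 58.7 to 159 CPM in Ehmt2Mat embryos (median 94.9), and was not called (log2 fold change -0.47 ± 0.24 SE). Reads outside the recombined part of the gene and reads of the zygotic copy are counted too, so that Ehmt2 checks the labels only in part. The 6 markers of the 8C embryo summed to 1938 to 3279 CPM in controls and 3032 to 3989 CPM in Ehmt2Mat embryos. Single markers went both ways, with log2 fold changes from -0.60 to 0.90 and a median of 0.07. Markers of other cells were low: 4 cumulus cell genes summed to at most 1.52 CPM with Has2 and Ptx3 at 0 in every embryo, 4 sperm genes to at most 1.23 CPM with Tnp1 and Tnp2 at 0, 4 erythrocyte genes to at most 9.33 CPM and 4 markers of the 2C stage to at most 11.8 CPM. The 4 oocyte markers summed to 27.5 to 234 CPM in controls and 88.3 to 308 CPM in Ehmt2Mat embryos. Of these, Oosp1 was called higher (log2 fold change 2.70 ± 0.54), while Zp3 (-0.46 ± 0.41), Gdf9 (-0.03 ± 0.29) and Bmp15 (-0.88 ± 0.64) were not called. Their part in the differences below was not tested.

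The promoters of the factors were searched for short motifs to see whether genes of such closely joined function share letters upstream of their start. RefSeq windows of GRCm38.p6, from 250 bases before to 50 bases after the start, were at hand for 43 of the 50 genes. CACGTG, the E-box bound by MYC and USF proteins, stood in 12 of the 43 windows (27.9%), in 8.09% of the windows of all 27025 genes and in 12.1% of those of 8817 genes expressed here. CCGGAAG, a core bound by ETS factors such as GABP, was in 18 of 43 (41.9%), against 9.93% of all genes and 21.8% of the expressed ones. Of the other motifs, GCGCATG (the NRF1 core) was in 5, AAGATGG (the YY1 core) in 3, CTCGCGA in 2 and TATAAA in 2 of the 43, with 8.64%, 8.94%, 4.90% and 8.05% of expressed genes. Each motif was searched on both strands, CACGTG reads the same on both, and no test was made.

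The 250 bases before the start of 4 genes are shown, 5′ to 3′ on the strand of the gene, with every motif searched for in capitals (in Imp4 also GCGCATG and, on either strand, AAGATGG, and in Utp18 also CCGGAAG). Rrp7a (chr15:83122802-83123051, minus strand) and Imp4 (chr1:34439579-34439828, plus strand) were the higher genes with CACGTG, Rcl1 (chr19:29101125-29101374, plus strand) was a higher gene with none of the motifs, and Utp18 (chr11:93885767-93886016, minus strand), added after its values were seen, is a lower gene with CACGTG.
Rrp7a: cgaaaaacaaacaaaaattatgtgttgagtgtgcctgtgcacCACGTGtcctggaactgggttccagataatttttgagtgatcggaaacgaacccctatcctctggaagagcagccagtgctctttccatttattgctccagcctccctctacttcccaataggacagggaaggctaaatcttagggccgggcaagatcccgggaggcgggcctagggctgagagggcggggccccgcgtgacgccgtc
Imp4: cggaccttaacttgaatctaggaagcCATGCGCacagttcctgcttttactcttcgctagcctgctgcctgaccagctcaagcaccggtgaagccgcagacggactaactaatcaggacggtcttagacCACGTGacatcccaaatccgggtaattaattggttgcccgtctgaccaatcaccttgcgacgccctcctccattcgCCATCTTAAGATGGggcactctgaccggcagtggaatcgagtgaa
Rcl1: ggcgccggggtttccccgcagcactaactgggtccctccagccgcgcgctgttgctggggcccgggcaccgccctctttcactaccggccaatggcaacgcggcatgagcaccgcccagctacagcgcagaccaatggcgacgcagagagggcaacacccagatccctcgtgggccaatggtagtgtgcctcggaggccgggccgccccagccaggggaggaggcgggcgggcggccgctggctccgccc
Utp18: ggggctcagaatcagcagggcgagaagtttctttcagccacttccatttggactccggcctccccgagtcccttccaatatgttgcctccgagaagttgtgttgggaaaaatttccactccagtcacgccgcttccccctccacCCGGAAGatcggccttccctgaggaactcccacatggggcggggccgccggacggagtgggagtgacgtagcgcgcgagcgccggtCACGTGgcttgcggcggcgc
The E-box begins 208 bases before the start in Rrp7a, 121 bases in Imp4 and 20 bases in Utp18. Of the 15 called-higher factors with a window, 2 held CACGTG, beside 12.1% of expressed genes. CCGGAAG was in 5 of the 15, beside 21.8% of expressed genes. Of the 2 genes called lower, Utp18 held both motifs and Imp3 neither. A match shows letters in this window and not a bound site.

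All 50 genes passed the filter on low counts and were fitted among 11754 genes. Calling a gene at an adjusted p under 0.05 by edgeR's quasi-likelihood test, 18 of the 50 were higher in Ehmt2Mat embryos, 2 were lower (Utp18 and Imp3) and 30 were not called. Over all genes tested, 4.37% were called higher and 4.98% lower, or 9.35% in either direction. By DESeq2, 22 of the 50 were called higher and 3 lower, beside 7.04% and 8.06% of all genes. Since the list was chosen on this contrast, nothing is read from the difference between these shares. The log2 fold changes of the 18 ran from 0.59 to 1.59 with a median of 1.03, and 23 of the 30 genes that were not called also lay above 0. Over all genes tested, called or not, 47.6% lay above 0. The median over the 50 was 0.53, beside -0.04 over all genes tested. When the trend of each embryo with exon length was removed, 11 were called higher and 3 lower (2.65% and 5.81% of all genes), and the median was 0.39 beside -0.13 for all genes. Of the 20 called genes, 13 stayed called whichever of the 19 embryos was left out, while Imp4 lost its call in 2 of these fits (without control 8 or Ehmt2Mat 9), Rrp9 in 6, Wdr75 and Rrp12 in 10, Mphosph10 and Ddx52 in 13 and Dhx37 in 14. At the edge of the threshold, Ddx52, Dhx37 and Mphosph10 lay just inside with log2 fold changes of 0.65, 1.14 and 0.60, and Nol6, Nat10 and Utp20 just outside with -0.89, 0.69 and 0.71.

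**Figure D1:**
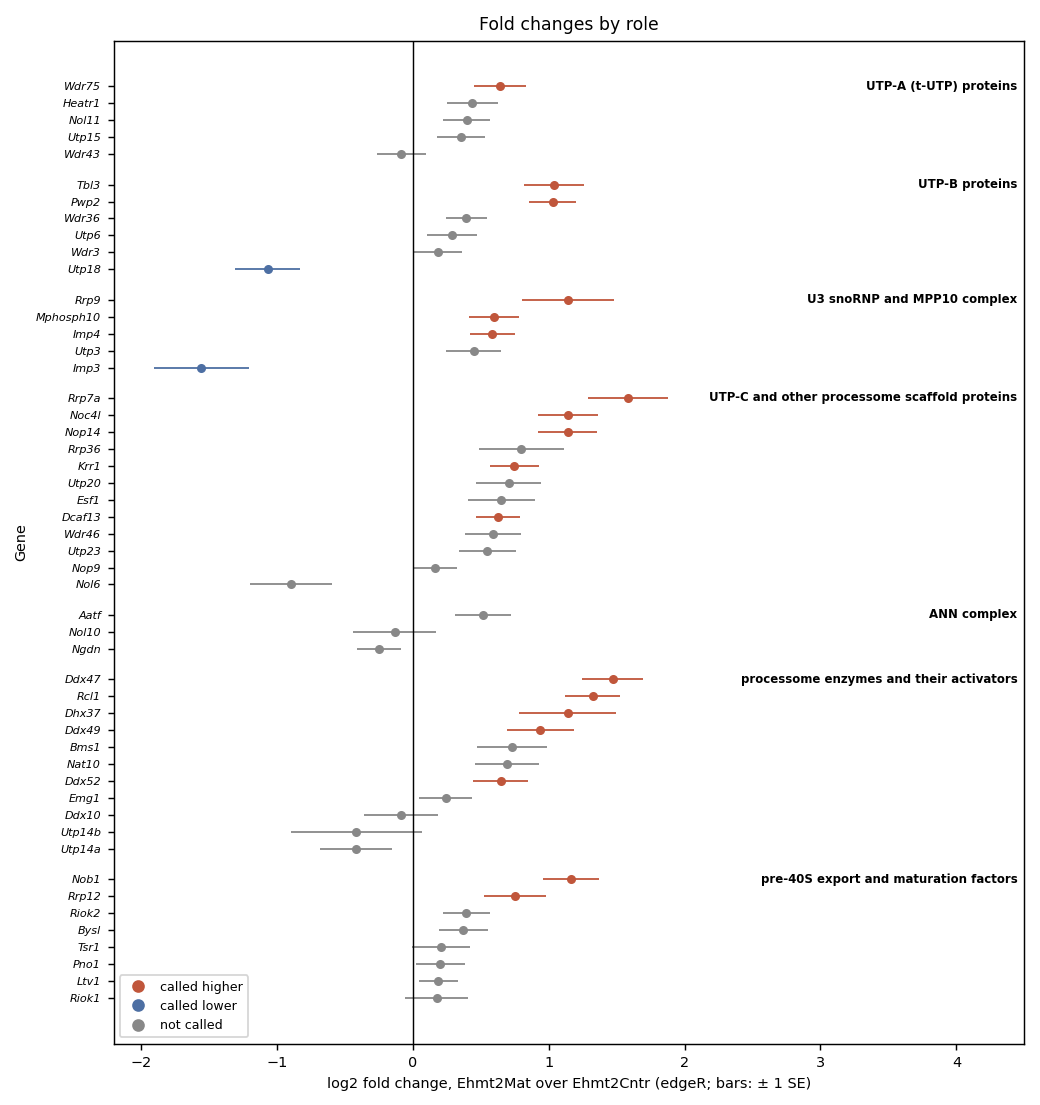
Log2 fold change of each of the 50 genes (horizontal axis, Ehmt2Mat over Ehmt2Cntr, edgeR estimate with bars of ± 1 SE), ordered within role groups on the vertical axis. Red points are the 18 genes called higher, blue points the 2 called lower (Utp18 and Imp3) and grey points the 30 not called.

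The UTP-A complex, also named t-UTP because it links transcription of the ribosomal DNA to processing, had 1 of 5 genes called higher. Wdr75, a beta-propeller protein of this complex, had 135 CPM in the lowest control, 213 CPM in the median control and 329 CPM in the highest, against 212, 353 and 540 CPM in Ehmt2Mat embryos. Of the 10 Ehmt2Mat embryos, 7 exceeded every control, and the log2 fold change was 0.64 ± 0.19. Heatr1, the large helical repeat protein that is needed for transcription by RNA polymerase I, had 167, 286 and 380 CPM in controls and 246, 378 and 608 CPM in Ehmt2Mat embryos (lowest, median and highest, as throughout below). The groups overlapped, with 4 Ehmt2Mat embryos above every control, and Heatr1 was not called at 0.44 ± 0.19. Wdr43 was the factor with the highest level per exon length, and its groups covered each other: 716, 1088 and 1702 CPM in controls and 759, 1086 and 1492 CPM in Ehmt2Mat embryos. Its log2 fold change was -0.08 ± 0.18. Nol11 and Utp15, the remaining subunits on the list, were at 0.40 ± 0.17 and 0.35 ± 0.18 and were not called.

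The UTP-B complex, a chain of beta-propeller proteins that receives the U3 snoRNP, was split. Pwp2, one of its tandem-propeller subunits (chr10:78170910-78185149), had 48.7, 86.7 and 114 CPM in controls and 133, 183 and 224 CPM in Ehmt2Mat embryos. Every Ehmt2Mat embryo therefore exceeded every control, and the fold was 2.04 (log2 1.03 ± 0.17). Utp18, a propeller subunit of the same complex that is known to bring the RNA exosome to the precursor (chr11:93859243-93885766), went the other way, with 118, 166 and 251 CPM in controls and 42.2, 63.7 and 171 CPM in Ehmt2Mat embryos. Of the 10 Ehmt2Mat embryos, 8 lay below every control and 9 below the control median (log2 -1.07 ± 0.24).

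Tbl3, also a tandem-propeller subunit of UTP-B, had 202, 275 and 331 CPM in controls and 232, 469 and 1179 CPM in Ehmt2Mat embryos, of which 9 exceeded every control (1.04 ± 0.22). Its exons share 37.3% of their bases with Noxo1 on the opposite strand, which had a median of 9.21 CPM in controls and 7.98 CPM in Ehmt2Mat embryos, and reads of the pair cannot be told apart in counts made without strand. The other subunits were not called: Wdr36 was at 0.39 ± 0.15, the helical repeat protein Utp6 at 0.29 ± 0.18 and Wdr3 at 0.19 ± 0.18. Within 1 complex the transcript levels of Ehmt2Mat embryos were thus 2.04 times those of controls for Pwp2 and 0.478 times for Utp18.

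The U3 snoRNP and the MPP10 complex, which base-pair with and hold the precursor at its cleavage sites, gave 3 genes called higher, 1 called lower and 1 not called. Imp4, a protein that helps the U3 RNA to pair with the precursor, had 135, 256 and 338 CPM in controls and 315, 365 and 491 CPM in Ehmt2Mat embryos, with 8 of 10 above every control (0.59 ± 0.17). Imp3, its partner in the same small complex and a single-exon gene (chr9:56937475-56938398), had 46.5, 129 and 374 CPM in controls and 25.5, 49.7 and 85.4 CPM in Ehmt2Mat embryos. All 10 Ehmt2Mat embryos lay below the control median and 5 below every control (-1.56 ± 0.35). The controls themselves were widely spread for Imp3: embryos 1, 2, 3 and 5 had 188, 254, 374 and 205 CPM, and the other 5 had between 46.5 and 129 CPM, with the lowest in embryo 10. It had the largest spread of the 50 genes in controls, with an SD of 1.04 on the log2(CPM + 1) scale.

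Mphosph10, the protein around which Imp3 and Imp4 gather, had a median of 141 CPM in controls and 229 CPM in Ehmt2Mat embryos (0.60 ± 0.19). Rrp9, the protein that recognises the U3 RNA, had medians of 47.6 and 78.4 CPM (1.14 ± 0.34). Utp3, known in yeast as Sas10, had 241, 358 and 756 CPM in controls and 295, 576 and 751 CPM in Ehmt2Mat embryos, so that the ranges covered each other, and it was not called (0.45 ± 0.20).

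Among 12 genes of the UTP-C complex and the remaining scaffold proteins, 5 were called higher and none lower. Rrp7a, the UTP-C subunit that had the largest fold of the list (3.00; log2 1.59 ± 0.30), had 20.4, 38.3 and 56.6 CPM in controls and 36.3, 108 and 185 CPM in Ehmt2Mat embryos, 8 of which exceeded every control. Its exons share 12.5% of their bases with Serhl on the opposite strand, whose median was 20.9 CPM in controls and 53.3 CPM in Ehmt2Mat embryos, so that the 2 genes moved the same way and their reads cannot be told apart in the shared part. Nop14 and its binding partner Noc4l, which hold the emerging small subunit, were both called higher. Nop14 had 56.6, 97.6 and 145 CPM in controls and 141, 203 and 400 CPM in Ehmt2Mat embryos (1.14 ± 0.22), with 8 Ehmt2Mat embryos above every control. Noc4l (chr5:110648418-110653417) had 50.4, 97.5 and 125 CPM in controls and 143, 182 and 391 CPM in Ehmt2Mat embryos, so that the groups did not overlap (1.14 ± 0.22).

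Dcaf13, the scaffold protein named Sof1 in yeast, had 185, 268 and 329 CPM in controls and 282, 404 and 643 CPM in Ehmt2Mat embryos, 8 of them above every control (0.63 ± 0.16). Krr1, an RNA-binding scaffold protein with KH domains, had medians of 240 and 383 CPM, with 9 of 10 Ehmt2Mat embryos above every control (0.75 ± 0.18). The other 7 were not called. Of these, Rrp36 (0.80 ± 0.31), the giant helical repeat protein Utp20 (0.71 ± 0.24), Esf1 (0.65 ± 0.25), the propeller protein Wdr46 (0.59 ± 0.21), Utp23 (0.55 ± 0.21) and the PUM-like repeat protein Nop9 (0.16 ± 0.16) lay above 0. Nol6, a UTP-C subunit and partner of Rrp7a, lay below it, with medians of 114 CPM in controls and 53.2 CPM in Ehmt2Mat embryos, of which 9 were below the control median (-0.89 ± 0.30).

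None of the 3 genes of the ANN complex, named after Aatf, Ngdn and Nol10, was called. Aatf had 44.8, 78.8 and 104 CPM in controls and 67.3, 109 and 182 CPM in Ehmt2Mat embryos (0.51 ± 0.21). Its partner Ngdn had 97.5, 141 and 170 CPM and 88.2, 105 and 162 CPM (-0.25 ± 0.16). Nol10 had 10.4, 32.0 and 41.0 CPM and 9.76, 22.5 and 58.6 CPM (-0.13 ± 0.31). The ranges of the groups overlapped for all 3, with Aatf on the higher side and the other pair near or below 0.

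The enzymes and their activators gave 5 of 11 genes called higher and none lower. Rcl1, the protein that binds the GTPase Bms1 and has been assigned a part in cutting the precursor (chr19:29101375-29143843), had 71.4, 127 and 187 CPM in controls and 236, 291 and 556 CPM in Ehmt2Mat embryos. The lowest Ehmt2Mat embryo stood above the highest control, and the log2 fold change was 1.32 ± 0.20. Ddx47, a DEAD-box helicase known in yeast as Rrp3 (chr6:135011612-135023776), was separated in the same manner, with 42.0, 124 and 206 CPM in controls and 228, 361 and 515 CPM in Ehmt2Mat embryos (2.78-fold; log2 1.47 ± 0.22). Bms1, the partner of Rcl1, had medians of 110 and 164 CPM and was not called (0.73 ± 0.26).

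Dhx37, the helicase that takes the U3 RNA off the precursor, was the factor with the lowest level, at medians of 8.76 CPM in controls and 20.9 CPM in Ehmt2Mat embryos. All 10 Ehmt2Mat embryos were above the control median and 3 above every control (1.14 ± 0.36). The helicases Ddx49 (0.94 ± 0.25) and Ddx52 (0.65 ± 0.20) were called higher as well, and Ddx49 shares 29.8% of its exon bases with Homer3 on the opposite strand, with medians of 57.0 and 71.9 CPM. Ddx10, a helicase known in yeast as Dbp4, was not called, with 56.8, 162 and 223 CPM in controls and 42.0, 135 and 228 CPM in Ehmt2Mat embryos (-0.08 ± 0.27).

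Of the enzymes that modify the RNA, the cytidine acetyltransferase Nat10 had medians of 104 and 165 CPM (0.69 ± 0.24). The pseudouridine methyltransferase Emg1 had 224.5, 428 and 531 CPM in controls and 288, 463 and 864 CPM in Ehmt2Mat embryos (0.24 ± 0.19). Neither was called. Utp14a, the X-linked activator of Dhx37 (chrX:48256862-48282453), had 88.3, 139 and 255 CPM in controls and 28.6, 97.1 and 212 CPM in Ehmt2Mat embryos (-0.42 ± 0.26). Its autosomal retrogene copy Utp14b, which lies within Acsl3 (chr1:78658038-78671512), had 16.0, 33.4 and 65.5 CPM in controls and 0.242, 25.1 and 59.3 CPM in Ehmt2Mat embryos, the lowest being 2 counts in embryo 3 (-0.41 ± 0.48). Reads that fit both copies were kept in the counting, so values of this pair are uncertain.

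The 8 pre-40S factors gave 2 genes called higher. Nob1, the endonuclease that makes the last cut of 18S rRNA (chr8:107412486-107425051), had 75.7, 218 and 273 CPM in controls and 325, 432 and 697 CPM in Ehmt2Mat embryos, without overlap (2.25-fold; log2 1.17 ± 0.21). Rrp12, an export factor of the particle, had 38.6, 80.7 and 141 CPM in controls and 92.9, 143 and 193 CPM in Ehmt2Mat embryos, with all 10 above the control median and 5 above every control (0.75 ± 0.23). Pno1, the KH-domain protein that sits with Nob1 at the cleavage site, was not called, at medians of 461 and 501 CPM (0.20 ± 0.18).

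Ltv1, a factor released when the beak of the 40S subunit forms, had 336, 462 and 633 CPM in controls and 414, 523 and 691 CPM in Ehmt2Mat embryos (0.19 ± 0.15). The other pre-40S factors were not called either. Bysl, known in yeast as Enp1, was at 0.37 ± 0.18, and the GTPase-like Tsr1 at 0.21 ± 0.21. The atypical kinases Riok1 and Riok2 were at 0.18 ± 0.23 and 0.40 ± 0.17. All 8 pre-40S genes lay above 0, 6 of them within the range of 0.18 to 0.40. With the exon length trend removed, however, Ltv1 came to -0.01, Riok1 to -0.0008, Pno1 to 0.004 and Tsr1 to 0.08.

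**Figure D2:**
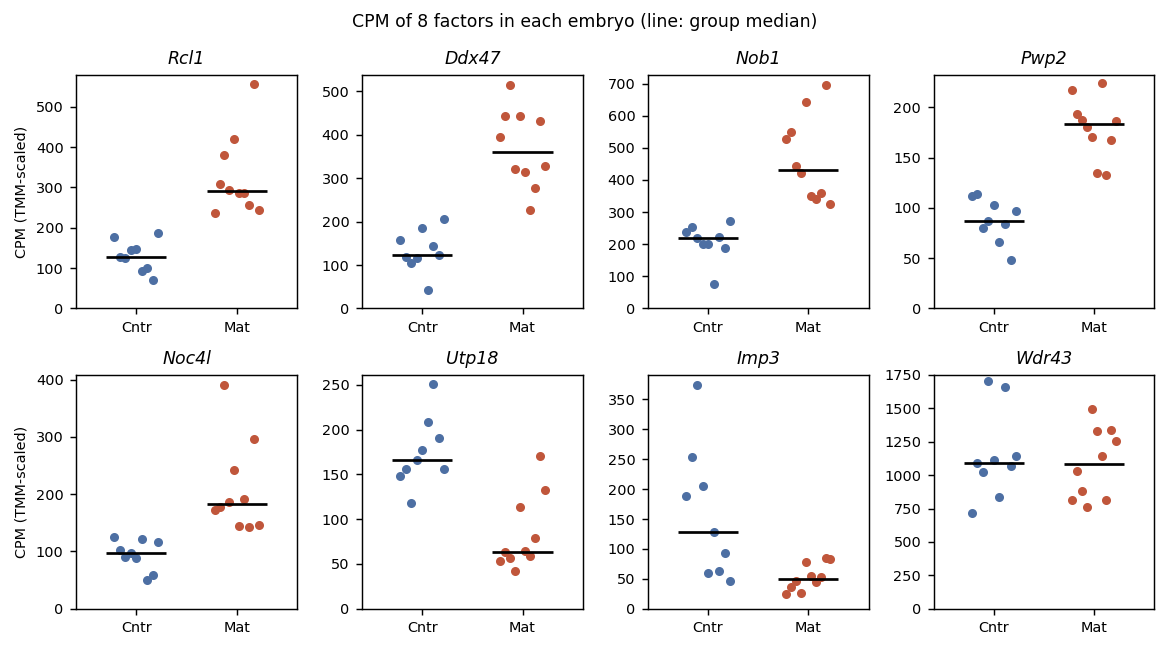
CPM of 8 factors (vertical axes, each from 0) in 9 Ehmt2Cntr embryos (blue) and 10 Ehmt2Mat embryos (red), 1 point per embryo and a line at the group median. Rcl1, Ddx47, Nob1, Pwp2 and Noc4l do not overlap between the groups, Utp18 and Imp3 are lower in Ehmt2Mat embryos with overlap, and the 2 groups cover each other for Wdr43.

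In all, 5 of the 50 genes (Pwp2, Noc4l, Rcl1, Ddx47 and Nob1) had every Ehmt2Mat embryo above every control, and no gene had every Ehmt2Mat embryo below every control. Over all genes tested these shares were 0.340% and 0.179%. For 14 genes all 10 Ehmt2Mat embryos exceeded the control median, for which the share over all genes was not computed. These counts follow from the choice of the list on the same embryos and are given as a description. By role, the median log2 fold change was 0.40 for UTP-A, 0.34 for UTP-B, 0.59 for the U3 and MPP10 group, 0.68 for UTP-C and scaffold proteins, -0.13 for the ANN complex, 0.69 for enzymes and 0.29 for pre-40S factors.

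Embryo by embryo, most of the 50 genes lay on the higher side in every Ehmt2Mat embryo. The median over the 50 genes of log2(CPM + 1) minus the control median was between -0.11 and 0.09 in the 9 controls and between 0.25 and 0.79 in the 10 Ehmt2Mat embryos. In each Ehmt2Mat embryo between 31 and 43 of the 50 genes exceeded the control median, against 14 to 30 in controls. The same deviation over all genes was between -0.08 and 0.09 in Ehmt2Mat embryos. The list was chosen on these same embryos, so the shift of the Ehmt2Mat embryos is a description. The controls themselves set the reference, which places them near 0. For the counts above the control median, the share over all genes was not computed. The summed CPM of the 50 genes overlapped, at 8761 to 11795 in controls (median 9833) and 10583 to 15927 in Ehmt2Mat embryos (median 12296). Ehmt2Mat embryos 7 and 8, which had the highest mitochondrial shares of their group (20.2% and 21.7%), had the lowest share of counts in the 50 genes, and without them 16 genes were called higher and 2 lower, beside 3.44% and 3.61% of all genes. The part of the mitochondrial share in these values was not tested. CPM are relative to the library of each whole embryo, so that neither cell number nor the amount of RNA per cell can be read from them.

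**Figure D3:**
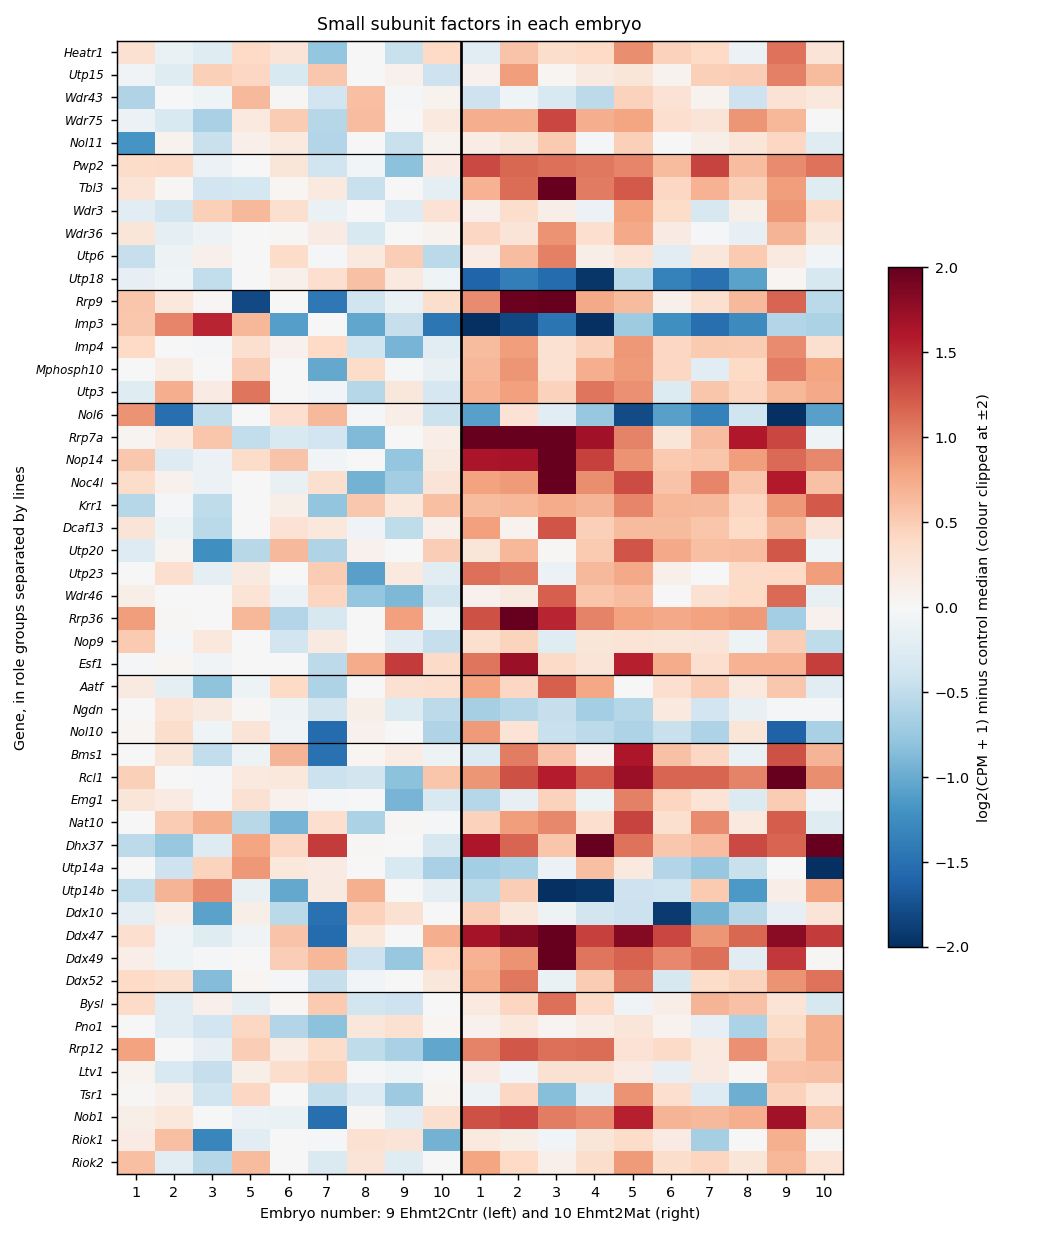
Each row is 1 of the 50 genes in its role group and each column 1 embryo, with 9 Ehmt2Cntr on the left and 10 Ehmt2Mat on the right of the line. Colour gives log2(CPM + 1) minus the control median of that gene, so that red rows such as Rcl1, Ddx47 and Nob1 and the blue rows Utp18 and Imp3 can be followed across the embryos.

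The zygotic genotype was not used in choosing the list, and it asks whether the embryo's own Ehmt2 copy changes these genes. Between 5 Ehmt2M/Z and 5 Ehmt2M/+ embryos, edgeR called none of the 50 genes and none of all 12195 genes tested (0% called). DESeq2 also called none of the 50, and 3 genes in all. At an unadjusted p under 0.05, 1 of the 50 genes passed (2%), beside 2.21% of all genes. That gene was Nol6, whose mean level was 44.5 ± 16.4 CPM in the 5 Ehmt2M/Z embryos, against 86.1 ± 36.1 CPM in the 5 Ehmt2M/+ embryos (± SD). Its log2 difference was -0.95 ± 0.35, with a raw p of 0.017 and an adjusted p of 1.00 by edgeR. Over the 50 genes the log2 difference ran from -0.95 to 0.63 with a median of 0.09, beside -0.04 for all genes. Its median SE was 0.28. Even Nol6 at -0.95 was not called, so that differences well above 1 SE could have been missed with these embryos.

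The genes that stood apart most between the maternal groups were also set out by zygotic genotype. Rcl1 had 359 ± 130 CPM in Ehmt2M/Z and 295 ± 53.6 CPM in Ehmt2M/+ embryos (log2 0.29 ± 0.25), and Ddx47 had 363 ± 89.9 and 375 ± 99.98 CPM (-0.04 ± 0.24; SD, n = 5 in each). Nob1 had 525.9 ± 148 and 406 ± 92.1 CPM (0.38 ± 0.24), and Pwp2 had 192 ± 26.6 and 167 ± 30.4 CPM (0.21 ± 0.21). The lower genes Utp18 and Imp3 gave log2 differences of 0.15 ± 0.39 and -0.06 ± 0.39. The intervals of ± 2 SE include 0 for all 6, and for Utp18 and Imp3 they also include differences of more than 0.5 in either direction. The median deviation of the embryo was 0.35 to 0.79 in Ehmt2M/Z (median 0.56) and 0.25 to 0.64 in Ehmt2M/+ embryos (median 0.39), with overlap.

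In controls, 3 embryos of genotype +/- were compared with 6 of genotype +/+. Again none of the 50 was called, nor any of 12646 genes (0%), DESeq2 called none of the 50 and 3 genes in all, and at an unadjusted p under 0.05 no member of the list passed, beside 4.52% of all genes by edgeR. The log2 difference ran from -0.90 for Dhx37 to 0.78 for Rrp9, with a median of 0.02 and a median SE of 0.33. When only +/- embryos were compared between the maternal groups (5 against 3), none of the 50 was called and 1 gene of all 13401 was, a lower one (0.00746%). All 20 genes called in the full comparison kept their direction in that comparison. The median log2 fold change of the 50 was 0.55, beside 0.03 for all genes. By edgeR, 15 of the 50 had an unadjusted p under 0.05, beside 6.76% of all genes. Single genes changed in size. Rcl1 came to 0.83 (1.32 in the full comparison), Ddx47 to 1.24 (1.47), Nob1 to 0.72 (1.17), Pwp2 to 0.77 (1.03) and Noc4l to 0.84 (1.14). Others were larger, such as Wdr75 at 0.86 (0.64) and Dhx37 at 1.70 (1.14). The +/- embryos are a subset of those above and no independent support.

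**Figure D4:**
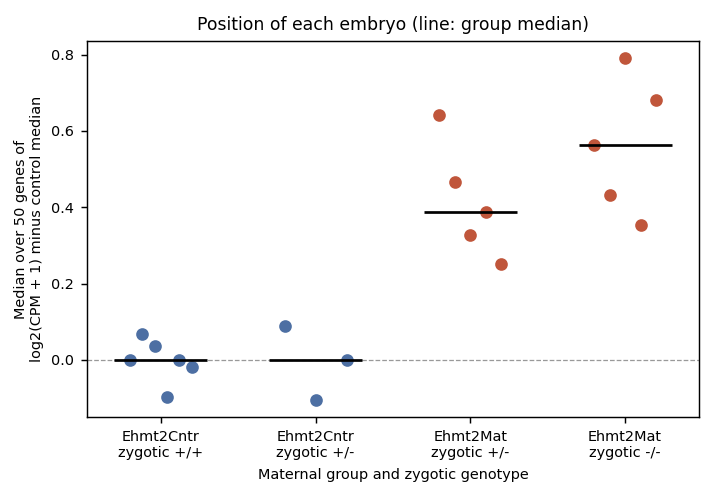
Median over the 50 genes of log2(CPM + 1) minus the control median (vertical axis), 1 point per embryo, by maternal group and zygotic genotype (horizontal axis), with a line at the median of each group. Controls of either genotype lie between -0.11 and 0.09, Ehmt2M/+ embryos between 0.25 and 0.64 and Ehmt2M/Z embryos between 0.35 and 0.79.

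Compared per exon length, the factors were among the well expressed genes of the 8C embryo. The median over the 50 of the control median was 41.7 RPKM, beside 5.30 RPKM for all genes tested. Wdr43 was first with 315 RPKM, followed by Pno1 with 269, Ltv1 with 262, Utp3 with 220 and Dcaf13 with 173 RPKM. Last were Dhx37 with 1.74, Utp14b with 4.35 and Rrp7a with 7.09 RPKM. The ranges of all 49 neighbouring pairs in this order overlapped among controls, so that only distant ranks differ. Subunits of 1 complex were far apart in the order, such as Wdr43 and Heatr1 (43.8 RPKM) within UTP-A, or Imp3 (140 RPKM) and Rrp9 (17.1 RPKM) within the U3 and MPP10 group. The library protocol favours the 3′ end of transcripts, and the part of this in the order was not tested.

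In Ehmt2Mat embryos several genes had another place in the order, called or not. Imp3 went from rank 6 to rank 28 (53.8 RPKM) and Utp18 from rank 22 to rank 45, while Ddx47 went from rank 42 to 27, Rcl1 from 12 to 6 and Nob1 from 15 to 8. Of the genes that were not called, Ddx10 went from rank 20 to 32, Utp14a from 30 to 42, Nol6 from 38 to 47 and Nol11 from 18 to 25. Nol11 lost rank with a higher median, at 50.4 RPKM in controls and 57.6 RPKM in Ehmt2Mat embryos. The spread between embryos of a group is a description too, since the list was chosen on these embryos. The median SD of log2(CPM + 1) was 0.45 in controls and 0.41 in Ehmt2Mat embryos, beside 0.46 and 0.38 for the 41 large subunit factors named at the end. It was 0.66 and 0.52 over the 7338 and 5443 genes whose median CPM lay between the lowest and highest medians of the list. That wide range was not matched gene by gene for level. Within the list the SD was between 0.17 and 1.04 in controls and between 0.22 and 1.65 in Ehmt2Mat embryos, where Utp14b was the most variable.

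**Figure D5:**
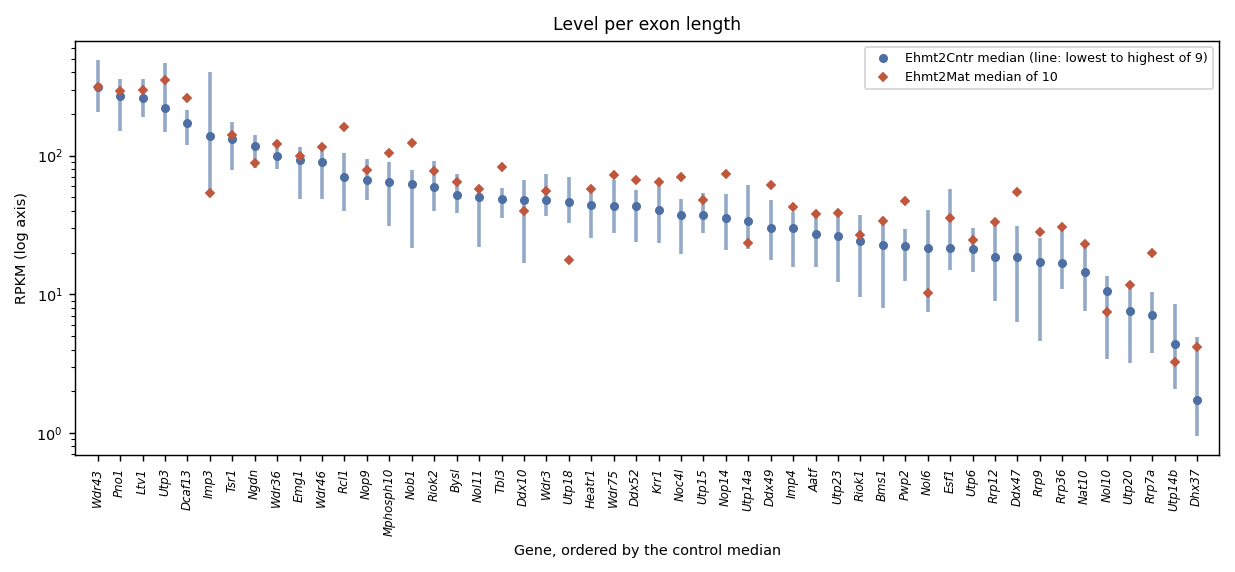
Level per exon length (vertical log axis, RPKM) of the 50 genes in the order of the control median. Blue points and lines give the median and the lowest to highest of 9 Ehmt2Cntr embryos, red diamonds the median of 10 Ehmt2Mat embryos. The control levels run from 315 RPKM for Wdr43 to 1.74 RPKM for Dhx37, and Imp3 and Utp18 fall below while Rcl1, Ddx47 and Rrp7a rise above their control values.

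Genes of the same pathway that are not on the list were set beside these factors in the same contrast. Of 22 other small subunit factors, 7 were called higher (Abt1, Utp25, Dnttip2, Mybbp1a, Ddx21, Tcof1 and Ncl), 2 lower (Nol7 and Bud23) and 13 were not called. Their median log2 fold change was 0.50. Over all genes tested, 4.37% were called higher and 4.98% lower, and the median was -0.04. Abt1, an activator of basal transcription that also joins the processome, had 6.31, 35.2 and 95.1 CPM in controls and 108, 220 and 383 CPM in Ehmt2Mat embryos (log2 2.52 ± 0.37). Its groups did not overlap, and 0.34% of all genes tested had every Ehmt2Mat embryo above every control. Nol7, a nucleolar protein of the processome, had 103, 259 and 458 CPM in controls and 34.3, 72.6 and 203 CPM in Ehmt2Mat embryos (-1.65 ± 0.31). Bud23, the methyltransferase of 18S rRNA, was lower by a log2 fold change of -1.03 ± 0.22.

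Of 41 factors that assemble the large subunit, 22 were called higher and none lower, with a median of 0.64. Of 32 ribosomal proteins of the 40S subunit, 7 were called higher and none lower, with a median of 0.52. The shares over all genes tested were again 4.37% higher and 4.98% lower, with a median of -0.04. These lists were also drawn up with results of the same embryos known. A difference between the small subunit factors and these lists was not tested.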

How the data were processed

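The authors deposited raw counts per Ensembl gene for each embryo, without normalization. Per the file headers, featureCounts 1.5.0 counted reads on exons of Ensembl release 82 (GRCm38) without strand, with an overlap of at least 10 bases, every overlapped gene credited and multi-mapping reads kept. The submitters' processing notes name TopHat2 and DESeq2. cDNA was amplified with a 3′ bias and sequenced as single-end 50 bp reads. Of 20 labelled embryos, 19 had counts, and control embryo 4 was not analysed here. No pair of embryos was identical.

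From these counts, edgeR 4.0.16 in R 4.3.3 was run with its filter on low counts, TMM normalization, the quasi-likelihood test and Benjamini-Hochberg adjustment over all genes, at a threshold of 0.05, without covariates. SEs are those of the log2 fold change. DESeq2 1.42.0 was an alternative. RPKM divide CPM by the summed exon length. The fits were run on simulated counts with known changes, in which embryos were independent. A pass limit was set for the maternal comparison only, not for the zygotic ones. Reads of a gene and an overlapping neighbour cannot be told apart: 19 of the 50 genes share exon bases with another gene, 8 of them over 10% (Tbl3, Wdr3, Rrp7a, Nop9, Utp14a, Ddx49, Tsr1 and Riok2). For 7 genes no promoter window was at hand, and Wdr36 is not shown.

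The genes and lists were chosen with earlier results of these data known. Every gene of the list is named by role. Ranges are given for those with the smallest p or highest level in each role group, those called lower, those with the largest and smallest fold changes, and Utp14a and Utp14b. Alternatives were other normalizations and filters, DESeq2, the embryo number as a block, removal of the exon length trend, thinned counts, zygotic +/- embryos only and each embryo left out. Leaving out Ehmt2Mat embryos 7 and 8 was chosen after seeing the data.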

Additional observations from a re-analysis of the deposited data

Results flagged for a closer look

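Among 100 sets of values (50 genes in 2 groups), 9 held an embryo far from the others of its group on the log2(CPM + 1) scale, where chance flags about 1 in 20. Control embryo 7 was the lowest of its group for 4 of these genes. It had 68.6 CPM of Mphosph10 where the other controls had 127 to 199 CPM, 10.4 CPM of Nol10 (others 20.8 to 41.0), 42.0 CPM of Ddx47 (others 105 to 206) and 75.7 CPM of Nob1 (others 187 to 273). Without this embryo the log2 fold change was 1.35 for Ddx47 and 1.06 for Nob1, both still called, and 0.51 for Mphosph10, which then lost its call. Control embryo 8 had 36.9 CPM of Utp23 (others 68.3 to 114), and control embryo 9 had 224.5 CPM of Emg1 (others 346 to 531). In the Ehmt2Mat group, embryo 6 had 295.2 CPM of Utp3 (others 482 to 751) and embryo 10 had 28.6 CPM of Utp14a (others 81.5 to 212). Embryo 3 had 0.2 CPM of Utp14b, from 2 counts, where the others had 7.90 to 59.3 CPM.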

How the results depend on the processing

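Of the 18 factors called higher and 2 called lower, 10 and 1 were called when a replicate block for the embryo number was fitted (18 embryos in 9 numbered pairs), beside 3.02% and 3.03% of all genes. The same numbers did not pair the embryos: deviations of same-numbered embryos correlated between -0.156 and 0.086, and 0 of 9 pairs passed 0.1. With the exon length trend removed, 11 were called higher with a median log2 fold change of 0.39, and with the block as well 8 (1.79% of all genes) with a median of 0.43, beside -0.01 for all genes. Between zygotic +/- embryos only, 0 were called higher and 0 lower, in 8 embryos. Requiring a log2 fold change beyond 1 in size left 10 higher (2.16% of all genes). With no filter on low counts the median of all genes moved from -0.04 to 0.13, and that of the 50 to 0.56. Leaving out each embryo in turn, 13 to 18 were called higher and 2 to 3 lower, with a median of 0.48 to 0.59. For the other small subunit factors these fits called 5 to 8 higher and 2 to 3 lower, for the zygotic comparisons 0 in each, and the median over controls of each embryo's median RPKM of the 50 genes was 38.8 to 39.8, beside 39.0 with all controls. No gene whose fold change was called changed direction under any of these alternatives. The cause of the changes above was not tested. The fewest counts were those of Utp14b and Dhx37, with 2 and 100 in their lowest embryos, and with counts thinned to the lowest total 18 were called higher and 2 lower.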
